A study of Mus musculus with 9 samples.

Results

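The genes described here disassemble actin filaments or control the proteins that do: gelsolin (Gsn), the cofilins and destrin (Cfl1, Cfl2, Dstn), the slingshot phosphatases (Ssh1, Ssh2, Ssh3) and the LIM kinases (Limk1, Limk2). They were taken by gene symbol, and 8 of the 9 listed genes had a row among the 11315 genes of the files. Cfl1 had no row and was not analysed here. The series title concerns myelinating oligodendroglia that express NDRG1, and its libraries came from cells sorted by fluorescence from the brain of C57BL/6 mice at postnatal day 60. There were 3 libraries from each of 3 reporters: PDGFRa-GFP cells, labelled as oligodendrocyte progenitor cells, PLP-GFP cells, labelled as pre-myelinating oligodendrocytes, and NDRG1-eGFP cells, labelled as myelinating oligodendrocytes. All groups shared strain, age and organ, and each differed from the others in its reporter. Whether the reporters were transgenes or knock-ins, and whether replicates came from separate animals, is not given in the sources used here, so the p-values reflect library-to-library spread, which may be technical.

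Actin filaments grow at their barbed end and are taken apart by severing and by loss of subunits. Gelsolin, which calcium activates, cuts filaments and then caps the new barbed end. Cofilins and destrin, the ADF/cofilin family, bind older filament segments, sever them and speed the release of subunits. LIM kinases switch ADF/cofilin proteins off by phosphorylating a serine near their first residue, and slingshot phosphatases switch them on again. In oligodendrocytes, disassembly of the actin network by gelsolin and cofilin is known to accompany wrapping of the myelin sheath around the axon.

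Values were the authors' normalized log2 values, in which a difference of 1 is a doubling, and the sequencing depth behind them is unknown. Differences were tested with limma-trend over all 11315 genes, and a gene was called when its adjusted p (Benjamini-Hochberg) was under 0.05. Libraries of a group correlated at 0.931 to 0.985, and PDGFRa-GFP replicate 3 stood apart from its group, at 0.931 and 0.935 against 0.982 between the other two. The summed share of 15 myelin markers, in percent of all linear values, was 9.67% to 11.3% in PDGFRa-GFP, 10.7% to 10.9% in PLP-GFP and 11.7% to 12% in NDRG1-eGFP libraries. Ndrg1 had means of 16.80, 16.84 and 16.99 in PDGFRa-GFP, PLP-GFP and NDRG1-eGFP. Pdgfra, listed here with the progenitor markers, had means of 6.63, 2.71 and 5.70 in the same order. It was called lower in PLP-GFP than in each other group, as were 10 of 11 measured fibroblast-like and meningeal markers. Which cells its transcripts came from was not tested. The medians of 14 progenitor markers ran from 7.46 to 9.62 over all libraries. Myelin transcripts in the PDGFRa-GFP libraries were therefore near their level in the other groups, against the progenitor label, and all groups are named here by their reporter. These were bulk libraries, in which fewer cells of a type and less RNA per cell cannot be told apart.

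The NDRG1-eGFP libraries differed from the PLP-GFP libraries in 7 of the 8 genes. Gsn, Cfl2 and Dstn were higher, and Ssh1, Ssh2, Ssh3 and Limk1 were lower, while Limk2 was not called. Of all genes tested, 48.3% were called in this comparison, 26.1% higher and 22.2% lower. The NDRG1-eGFP and PLP-GFP libraries did not overlap for any of the 8 genes, as for 66.4% of all genes. Against PDGFRa-GFP, 3 of 8 genes were called in NDRG1-eGFP (Gsn higher, Ssh3 and Limk1 lower), against a background of 21.1% (10.7% higher, 10.4% lower), and these were also the 3 whose libraries did not overlap, as for 35.3% of all genes. Between PLP-GFP and PDGFRa-GFP, 1 of 8 was called (Ssh1, higher in PLP-GFP), against 17.0% of all genes (8.46% higher, 8.53% lower), and 5 of 8 did not overlap, as for 42.3%. The 3 comparisons share libraries and are not independent of each other. The median log2 difference of the 8 genes was -0.22 for NDRG1-eGFP against PLP-GFP, -0.05 for PLP-GFP against PDGFRa-GFP and 0.09 for NDRG1-eGFP against PDGFRa-GFP, where the medians of all genes were 0.08, 0.03 and 0.14.

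**Figure D1:**
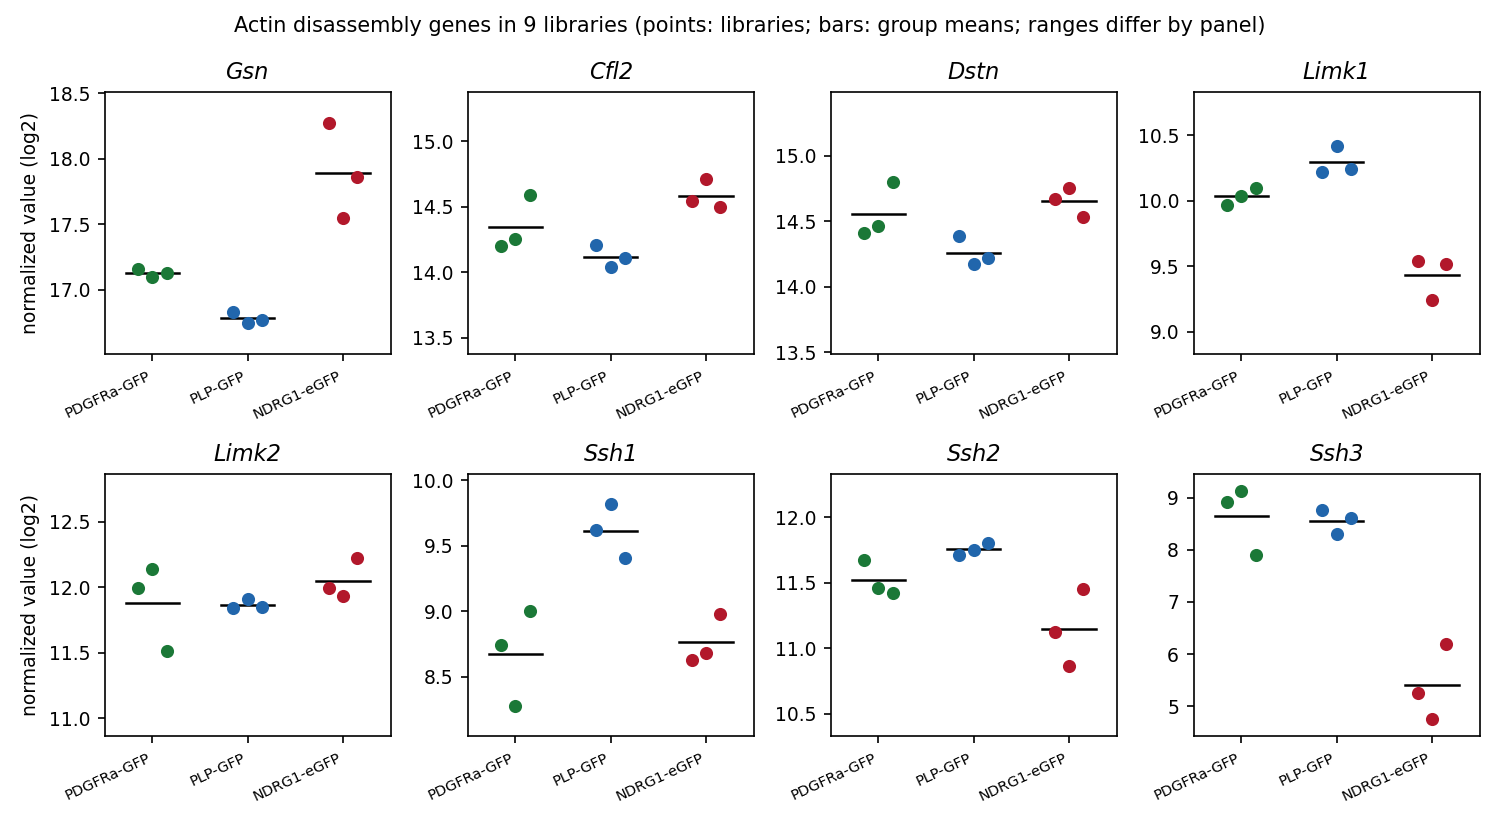
Normalized log2 value (vertical axis, range set per panel) of each of the 8 genes in the 9 libraries, by reporter; points are libraries in replicate order from left to right and bars are group means. The NDRG1-eGFP points are the highest 3 for Gsn and the lowest 3 for Limk1 and Ssh3.

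Gsn, the calcium-activated severing protein, spans chr2 35256380 to 35307892 on the plus strand (GRCm38, GENCODE M21). Its values were 17.16, 17.10 and 17.13 in PDGFRa-GFP, 16.83, 16.75 and 16.77 in PLP-GFP, and 18.27, 17.55 and 17.86 in NDRG1-eGFP libraries. The groups did not overlap, with NDRG1-eGFP highest and PLP-GFP lowest, and the NDRG1-eGFP libraries were more spread out (SD 0.36, n = 3) than the others (SD 0.03 and 0.04, n = 3 each). Gsn was 2.16-fold higher in NDRG1-eGFP than in PLP-GFP (log2 difference 1.11 ± 0.17 SE, limma-trend adjusted p = 5.54e-04). It was 1.70-fold higher in NDRG1-eGFP than in PDGFRa-GFP (0.76 ± 0.17 SE, adjusted p = 0.0105). The lower level of PLP-GFP against PDGFRa-GFP did not pass the test (-0.34 ± 0.17 SE, 95% interval -0.71 to 0.02, adjusted p = 0.165). The share of Gsn in the summed linear values was 0.229% to 0.240% for PDGFRa-GFP, 0.180% to 0.190% for PLP-GFP and 0.313% to 0.518% for NDRG1-eGFP libraries.

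Gelsolin is also made by other cells, and markers of these moved between the groups. Of 12 fibroblast-like and meningeal markers 11 were measured, and 10 of these were called lower in PLP-GFP than in each other group, with none called between NDRG1-eGFP and PDGFRa-GFP. Their summed share was 0.0142% to 0.0306% in PDGFRa-GFP, 0.000458% to 0.001% in PLP-GFP and 0.00739% to 0.0237% in NDRG1-eGFP libraries, and none of the markers was at 0. Of 11 measured microglia markers 7 were called higher in NDRG1-eGFP than in PLP-GFP, with shares of 0.0105% to 0.0147% against 0.00504% to 0.00746%, and 0.00663% to 0.0105% in PDGFRa-GFP, where Trem2 alone was called against NDRG1-eGFP, higher in the latter (median of the list 0.75). Among 21 immediate early and dissociation genes, 15 were called higher in NDRG1-eGFP than in PLP-GFP, with shares of 0.0938% to 0.484% against 0.0586% to 0.0722%, and 0.0786% to 0.448% in PDGFRa-GFP. With the length trend removed 9 were called higher there, against 20.0% of all genes. In PLP-GFP against PDGFRa-GFP 7 were called lower, and 2 with that trend removed, against 8.53% and 5.24% of all genes. Endothelial Cldn5, 1 of 2 measured genes of its list, was higher in both PLP-GFP and NDRG1-eGFP than in PDGFRa-GFP. Of 6 ependymal genes, Foxj1 was lower in NDRG1-eGFP than in each other group and Dynlrb2 was higher than in PDGFRa-GFP. Astrocyte, neuron and pericyte lists had no called gene in any comparison. The part of these markers in the Gsn result was not tested.

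The 3 genes whose pattern over the 9 libraries was most like that of Gsn, among 9001 genes with a mean of at least 8, were Mvd, an enzyme of cholesterol synthesis (Pearson r = 0.988), Bphl (0.982) and Trabd (0.981). Group means of Mvd were 11.03 in PDGFRa-GFP, 10.75 in PLP-GFP and 12.20 in NDRG1-eGFP. These correlations describe 9 libraries that share their normalization. Of 7 relatives of gelsolin, 3 were measured. Svil (supervillin) fell in NDRG1-eGFP against PLP-GFP (-0.73 ± 0.17 SE, adjusted p = 0.00642), and it was not called after the trend on transcript length described below was removed (-0.13). Flii, the flightless homolog, had means of 12.62, 12.94 and 12.76 in PDGFRa-GFP, PLP-GFP and NDRG1-eGFP, and Capg, a capping protein that does not sever, had 3.84, 5.18 and 5.54. Neither was called in any comparison.

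Cfl2, the cofilin first known from muscle, lies at chr12 54858809 to 54862877 on the minus strand, and Dstn, which encodes destrin or ADF, at chr2 143915320 to 143943324 on the plus strand. The start of their coding sequences carries the serine that LIM kinases phosphorylate. The first 45 coding bases (GENCODE M21 transcripts, GRCm38) are shown with that serine's codon, residue 3 counted from the initiator methionine, in capitals. In both genes the start codon is in exon 1 (chr12:54862744-54862746 for Cfl2, chr2:143915645-143915647 for Dstn) and the following 42 bases are in exon 2 (chr12:54861792-54861833 and chr2:143938385-143938426).
Cfl2: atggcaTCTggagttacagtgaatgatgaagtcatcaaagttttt
Dstn: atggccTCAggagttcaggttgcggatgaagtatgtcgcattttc
The serine codons differ in their last base, and aligned coding bases of the whole genes were 67.7% identical. The longest identical run between the whole transcripts that carry these coding sequences was 15 bases. None of the 50-base transcript windows of either gene occurred at another locus, so reads of that length from these transcripts could be assigned to 1 of the pair.

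In PDGFRa-GFP libraries Cfl2 had values of 14.20, 14.25 and 14.59, in PLP-GFP 14.21, 14.04 and 14.11, and in NDRG1-eGFP 14.54, 14.71 and 14.50. NDRG1-eGFP lay above PLP-GFP in all libraries, and PDGFRa-GFP overlapped both through its replicates 1 and 3. The NDRG1-eGFP mean was higher than that of PLP-GFP (0.47 ± 0.13 SE, limma-trend adjusted p = 0.0135). Cfl2 was not called in NDRG1-eGFP against PDGFRa-GFP (0.24 ± 0.13 SE, adjusted p = 0.215), but it was called there without PDGFRa-GFP replicate 3 (0.36, adjusted p = 0.0194).

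Dstn gave 14.41, 14.46 and 14.80 in PDGFRa-GFP, 14.39, 14.17 and 14.22 in PLP-GFP and 14.67, 14.75 and 14.53 in NDRG1-eGFP. Again PLP-GFP was lowest, and its highest library lay just under the lowest PDGFRa-GFP library. Dstn was higher in NDRG1-eGFP than in PLP-GFP (0.39 ± 0.13 SE, limma-trend adjusted p = 0.0318). Against PDGFRa-GFP its difference was 0.09 ± 0.13 SE (95% interval -0.20 to 0.39) in NDRG1-eGFP and -0.30 ± 0.13 SE (adjusted p = 0.137) in PLP-GFP. Both NDRG1-eGFP against PLP-GFP calls were lost when single libraries were left out: Cfl2 without PLP-GFP replicate 2 or NDRG1-eGFP replicate 2 (adjusted p = 0.0582 and 0.0544), and Dstn without any of PLP-GFP replicates 2 and 3 and NDRG1-eGFP replicates 1 and 2 (adjusted p from 0.0815 to 0.114). Dstn also lost its call when each library was recentred by its median difference (0.31, adjusted p = 0.0627).

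Cfl2 and Dstn varied together across the 9 libraries. Pearson r was 0.96 for their values and 0.97 for their deviations from the group means, a description of libraries that share their normalization. The difference Dstn minus Cfl2, which carries a constant term for transcript length, was 0.21 in each PDGFRa-GFP library, 0.18, 0.13 and 0.11 in PLP-GFP and 0.13, 0.04 and 0.03 in NDRG1-eGFP libraries. Within their groups, PDGFRa-GFP replicate 3 and NDRG1-eGFP replicate 2 were highest for both genes and lowest for Ssh3 and Limk2. In these libraries the summed share of the immediate early genes was also lowest, at 0.0786% against 0.442% and 0.448% in the other PDGFRa-GFP libraries and at 0.0938% against 0.387% and 0.484% in the other NDRG1-eGFP libraries. The part of this split in the shared variation was not tested. The 3 PDGFRa-GFP differences lay above all others, yet an exact permutation test of 3 libraries against 3 cannot give p under 0.1, the value found here (two-sided, adjusted 0.167 over 15 tests of differences within families).

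**Figure D2:**
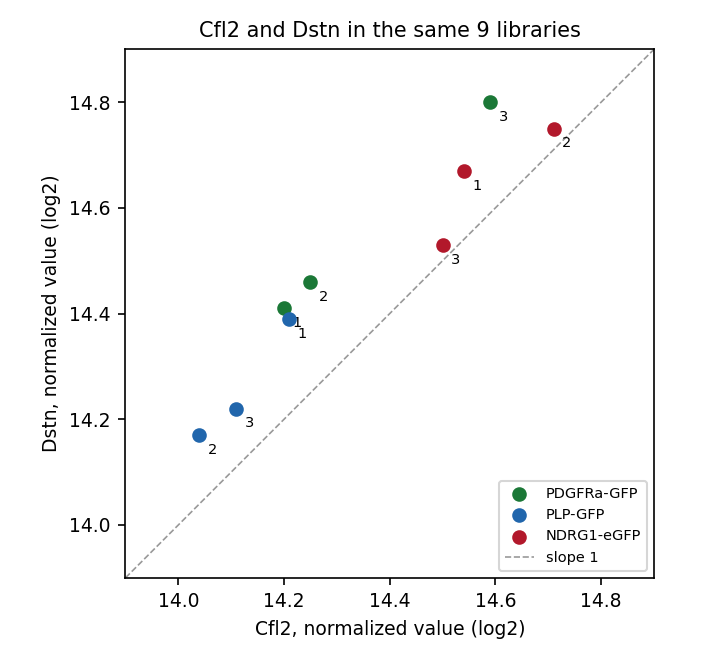
Normalized log2 values of Cfl2 (horizontal) and Dstn (vertical) in the 9 libraries, coloured by reporter and numbered by replicate, with no correction for transcript length; the dashed line has a slope of 1. The points rise along the line together (r = 0.96), from PLP-GFP replicate 2 at 14.04 and 14.17 to NDRG1-eGFP replicate 2 and PDGFRa-GFP replicate 3 at the top.

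Because these genes moved together, the 250 bases upstream of their annotated starts are shown (RefSeq, GRCm38.p6), at chr12:54862878-54863127 on the minus strand for Cfl2 and chr2:143915081-143915330 on the plus strand for Dstn. Capitals mark matches on either strand to the GC box GGGCGG and to CCAAT, including matches that overlap each other.
Cfl2: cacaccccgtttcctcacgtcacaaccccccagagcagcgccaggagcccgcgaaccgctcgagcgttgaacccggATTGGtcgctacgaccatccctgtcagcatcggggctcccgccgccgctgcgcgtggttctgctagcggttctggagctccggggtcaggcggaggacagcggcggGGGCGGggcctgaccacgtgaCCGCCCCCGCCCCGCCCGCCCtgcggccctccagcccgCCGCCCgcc
Dstn: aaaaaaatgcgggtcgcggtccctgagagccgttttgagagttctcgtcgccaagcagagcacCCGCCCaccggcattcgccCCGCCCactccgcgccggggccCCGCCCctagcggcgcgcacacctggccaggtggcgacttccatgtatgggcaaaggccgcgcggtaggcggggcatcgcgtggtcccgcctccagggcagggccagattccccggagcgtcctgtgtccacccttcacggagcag
Cfl2 had 6 GC boxes and 1 CCAAT match, and Dstn had 3 GC boxes and none of CCAAT. A GC box occurred in 32.7% of 32851 RefSeq promoters of this length and CCAAT in 33.8%. By gene, with any listed start counted, all 8 genes had a GC box, against 65.7% of 8726 measured genes with a promoter sequence, and 3 of 8 had CCAAT, against 41.2%. Neither TATAAA (7.54% of measured genes) nor the CArG box bound by serum response factor (1.32%) matched in any of the 8. These are matches of letters in these windows and not sites of binding.

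The slingshot genes encode phosphatases that remove the phosphate from cofilin. The codons around their catalytic cysteine are shown, with the cysteine codon in capitals, because the 3 enzymes share this site while their transcripts behaved differently. The cysteine is residue 393 of 1042 in Ssh1 (exon 13, chr5:113950526-113950570, minus strand), residue 398 of 1429 in Ssh2 (exon 12, chr11:77441874-77441918, plus strand) and residue 414 of 653 in Ssh3 (exon 12, chr19:4264048-4264092, minus strand), in the GENCODE M21 transcripts on GRCm38.
Ssh1: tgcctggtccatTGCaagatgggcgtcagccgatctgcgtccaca
Ssh2: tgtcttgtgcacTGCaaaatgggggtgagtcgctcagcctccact
Ssh3: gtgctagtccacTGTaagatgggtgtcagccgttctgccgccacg
Aligned coding bases were 66.3% identical between Ssh1 and Ssh2, 66.3% between Ssh1 and Ssh3 and 71.1% between Ssh2 and Ssh3. At most 0.366% of the transcript windows of any of the 3 occurred at another locus.

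Ssh3, at chr19 4261668 to 4269180, had 8.92, 9.13 and 7.90 in PDGFRa-GFP, 8.76, 8.31 and 8.60 in PLP-GFP, and 5.26, 4.76 and 6.20 in NDRG1-eGFP libraries. All NDRG1-eGFP values lay below all others, while PDGFRa-GFP and PLP-GFP overlapped. In NDRG1-eGFP, Ssh3 was 8.87-fold lower than in PLP-GFP (-3.15 ± 0.43 SE, limma-trend adjusted p = 3.46e-04) and 9.46-fold lower than in PDGFRa-GFP (-3.24 ± 0.43 SE, adjusted p = 6.25e-04). Between PLP-GFP and PDGFRa-GFP the difference was -0.09 ± 0.43 SE, with a 95% interval of -1.05 to 0.86. The NDRG1-eGFP values were the 56th, 23rd and 92nd lowest of 5422, 4837 and 5584 distinct values in their libraries, so they lay near the floor of the files and the size of the fold is less certain than its direction. Ssh3 remained called in both NDRG1-eGFP comparisons in every alternative that could be run, with log2 differences from -3.55 to -2.83 against PLP-GFP and from -3.64 to -2.92 against PDGFRa-GFP.

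The search for genes most like Ssh3 over the 9 libraries covered the same 9001 genes with a mean of at least 8. Ssh3 itself did not reach that mean, so genes at its own level were left out. The closest were Ppp1r37, which encodes a protein phosphatase 1 regulator (r = 0.986), Rhou, an atypical small GTPase (0.982), and Mapk8ip1, a JNK scaffold protein (0.981). Means of Rhou were 13.53, 13.54 and 12.06 in PDGFRa-GFP, PLP-GFP and NDRG1-eGFP. Mapk8ip1 had means of 15.78, 15.72 and 14.19. Both were thus near equal in the first 2 groups and lower in NDRG1-eGFP, over a smaller range than Ssh3.

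Ssh1, the most studied slingshot, at chr5 113937094 to 113993894, was highest in PLP-GFP. Its values were 8.74, 8.28 and 9.0 in PDGFRa-GFP, 9.62, 9.82 and 9.41 in PLP-GFP, and 8.63, 8.68 and 8.98 in NDRG1-eGFP libraries. PLP-GFP did not overlap the others, which overlapped each other. Ssh1 rose in PLP-GFP against PDGFRa-GFP (0.95 ± 0.23 SE, limma-trend adjusted p = 0.0244) and fell in NDRG1-eGFP against PLP-GFP (-0.86 ± 0.23 SE, adjusted p = 0.0114). The first call was lost without PDGFRa-GFP replicate 2 or without any 1 of the 3 PLP-GFP libraries (adjusted p from 0.0558 to 0.123) and in a fit of only these groups (adjusted p = 0.0505), and the second without PLP-GFP replicate 2 (adjusted p = 0.0568). NDRG1-eGFP and PDGFRa-GFP differed by 0.09 ± 0.23 SE, with an interval of -0.42 to 0.60.

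Ssh2, at chr11 77216287 to 77460220, had 11.67, 11.46 and 11.42 in PDGFRa-GFP, 11.71, 11.75 and 11.80 in PLP-GFP and 11.12, 10.86 and 11.45 in NDRG1-eGFP libraries. Replicate 3 of NDRG1-eGFP lay within the range of PDGFRa-GFP, and PLP-GFP lay above both groups. Ssh2 fell in NDRG1-eGFP against PLP-GFP (-0.61 ± 0.16 SE, limma-trend adjusted p = 0.00965). Against PDGFRa-GFP it was not called (-0.37 ± 0.16 SE, adjusted p = 0.121), though it was without NDRG1-eGFP replicate 3 (-0.52, adjusted p = 0.0456).

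Within the family, the difference Ssh2 minus Ssh3 had means of 2.86 in PDGFRa-GFP, 3.20 in PLP-GFP and 5.73 in NDRG1-eGFP, and Ssh1 minus Ssh3 had 0.02, 1.06 and 3.35. Both differences were larger in every NDRG1-eGFP library than in any other. The exact permutation p was 0.1, the smallest possible with 3 libraries a group (adjusted 0.167), for each of the 4 comparisons with NDRG1-eGFP. Ssh2 minus Ssh1 overlapped between NDRG1-eGFP and each other group.

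The LIM kinases phosphorylate and inactivate ADF/cofilin, downstream of small GTPases through ROCK and PAK kinases. Limk1, at chr5 134656039 to 134688598, had 9.97, 10.04 and 10.10 in PDGFRa-GFP, 10.22, 10.42 and 10.24 in PLP-GFP and 9.54, 9.24 and 9.52 in NDRG1-eGFP libraries. No groups overlapped: NDRG1-eGFP was lowest and PLP-GFP highest. In NDRG1-eGFP, Limk1 was 1.82-fold lower than in PLP-GFP (-0.86 ± 0.15 SE, limma-trend adjusted p = 0.00144) and 1.52-fold lower than in PDGFRa-GFP (-0.60 ± 0.15 SE, adjusted p = 0.0212). The second call was lost without PDGFRa-GFP replicate 2 or NDRG1-eGFP replicate 2 (adjusted p = 0.0516 and 0.0735) and in a fit of only these groups (adjusted p = 0.0862). PLP-GFP and PDGFRa-GFP differed by 0.26 ± 0.15 SE, which did not pass (adjusted p = 0.262).

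Limk2, at chr11 3344256 to 3409189, was the gene that was called in no comparison. Values were 11.99, 12.14 and 11.51 in PDGFRa-GFP, 11.84, 11.91 and 11.85 in PLP-GFP and 11.99, 11.93 and 12.22 in NDRG1-eGFP libraries. PDGFRa-GFP replicate 3 was the lowest of all 9, and its group spanned both others apart from NDRG1-eGFP replicate 3. NDRG1-eGFP minus PLP-GFP was 0.18, with a 95% interval of -0.19 to 0.55 (adjusted p = 0.4), and NDRG1-eGFP minus PDGFRa-GFP was 0.17, with an interval of -0.20 to 0.54. The difference between the kinases, Limk2 minus Limk1, was 2.01, 2.10 and 1.40 in PDGFRa-GFP, 1.62, 1.49 and 1.61 in PLP-GFP and 2.45, 2.69 and 2.70 in NDRG1-eGFP libraries. It was larger in every NDRG1-eGFP library than in all others (exact permutation p = 0.1 against each group, the smallest possible, adjusted 0.167).

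Levels of different genes can be set side by side only per length of transcript. Whether the deposited values were already divided by length is not given in the sources used here. The order below assumes that they were not, and it would differ otherwise: as deposited, Ssh1 and Ssh3 had means of 8.67 and 8.65 in PDGFRa-GFP, and Ssh2 and Limk1 did not overlap. After subtracting the log2 length in kilobases of the longest transcript, Gsn was at 15.72 in PDGFRa-GFP, 15.38 in PLP-GFP and 16.49 in NDRG1-eGFP. Dstn followed at 13.62, 13.32 and 13.72, and Cfl2 at 12.79, 12.56 and 13.03. Limk2 lay at 9.93, 9.92 and 10.10. Ssh2, at 8.32, 8.56 and 7.94, and Limk1, at 8.24, 8.50 and 7.64, were neighbours whose libraries overlapped in each group. Ssh3 was at 6.76, 6.67 and 3.52, and Ssh1 at 5.60, 6.54 and 5.68, so these genes changed places between PDGFRa-GFP and NDRG1-eGFP, and their libraries overlapped in PLP-GFP. No other neighbours in this order overlapped within a group. Gsn, Dstn and Cfl2 were thus above the LIM kinase and slingshot genes in each group, on this per-kilobase log2 scale. Other kinases and phosphatases were not placed on it.

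Differences between the groups followed transcript length across all genes, which bears on these members because their longest transcripts run from 1911 bases (Dstn) to 9178 bases (Ssh2). In NDRG1-eGFP against PLP-GFP, the median log2 difference was 0.87 over 385 genes with transcripts of 500 to 1000 bases, 0.09 over 2294 genes of 3000 to 4000 bases and -0.68 over 813 genes of 7000 to 10000 bases. When the trend on length was removed from each library, 3 of the 8 genes stayed called in this comparison, a share near the 36.4% of all 11271 genes with a length (20.0% higher, 16.4% lower). They were Gsn (0.85, limma-trend adjusted p = 0.00386), Ssh3 (-3.14, adjusted p = 4.32e-04) and Limk1 (-0.91, adjusted p = 0.00123). The others lost their call, with Cfl2 at 0.28 (adjusted p = 0.0808), Dstn at -0.04, Ssh1 at -0.23 and Ssh2 at 0.04. Dstn and Ssh2 had therefore differed by about as much as other genes of their length, for which the trend was 0.44 and -0.65. The same 3 genes were called against PDGFRa-GFP after the trend was removed, against 18.0% of all genes (9.01% higher, 9.02% lower), with Gsn at 0.61 (adjusted p = 0.0343), Ssh3 at -3.30 (adjusted p = 4.90e-04) and Limk1 at -0.68 (adjusted p = 0.011). The rise of Ssh1 in PLP-GFP against PDGFRa-GFP did not pass the test with the trend removed (0.67, adjusted p = 0.118), which left none of the 8 called there, against 9.71% of all genes.

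**Figure D3:**
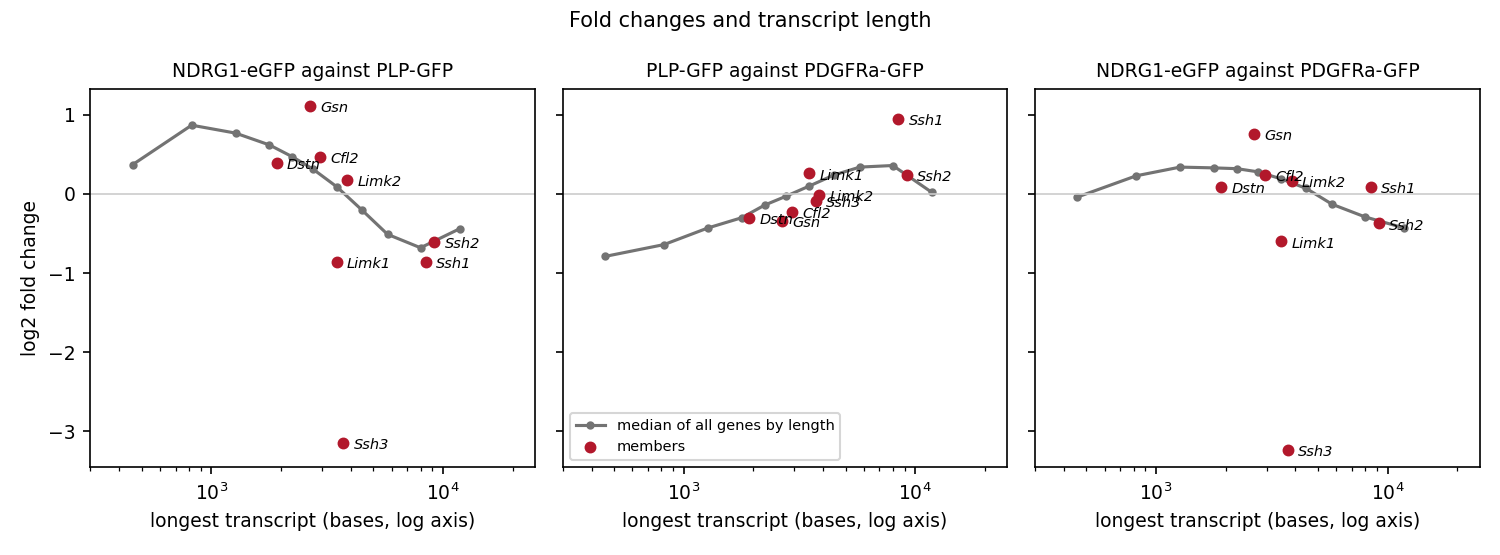
Log2 fold change (vertical) against length of the longest transcript (horizontal, log axis, bases) in the 3 comparisons; red points are the 8 genes and the grey line joins the medians of all genes in classes of length. In NDRG1-eGFP against PLP-GFP, Ssh2 lies on the grey line and Gsn, Limk1 and Ssh3 lie away from it.

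**Figure D4:**
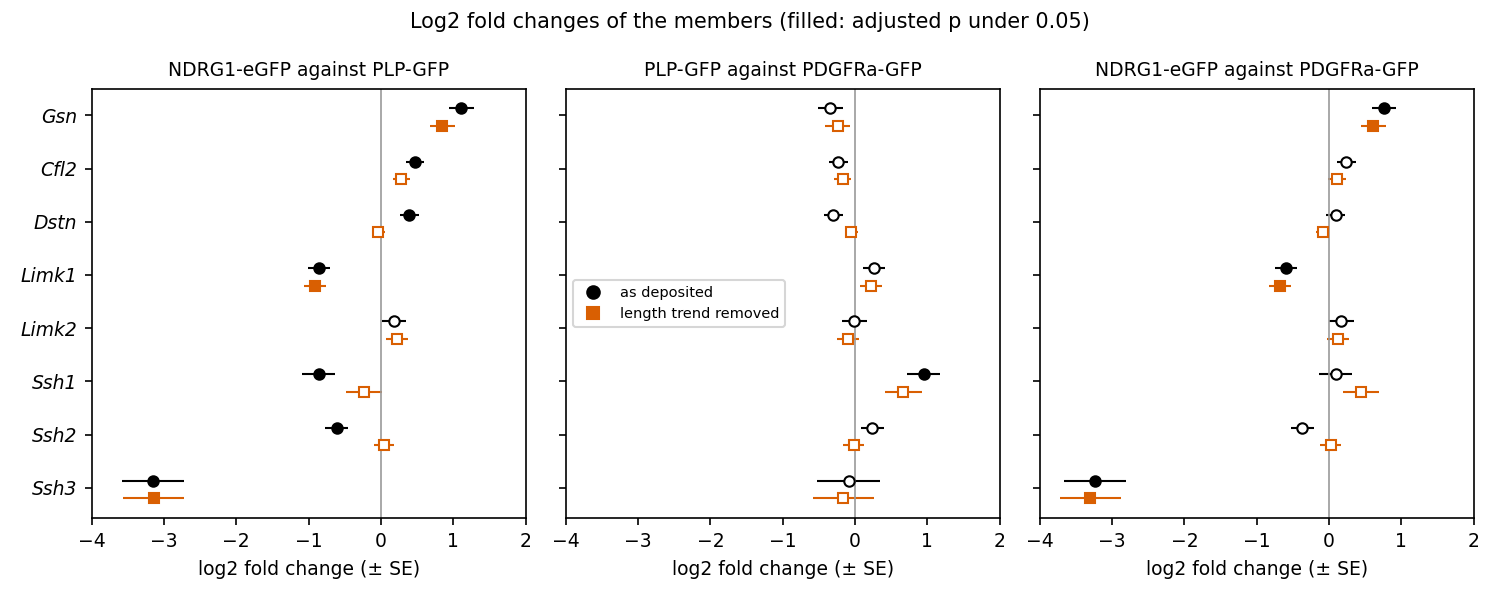
Log2 fold change with its standard error for each of the 8 genes in the 3 comparisons, from values as deposited (black circles) and with each library's length trend removed (orange squares); filled symbols have an adjusted p under 0.05. Gsn, Limk1 and Ssh3 are filled under both in the comparisons with NDRG1-eGFP.

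A list of 23 regulators of cofilin phosphorylation, mostly kinases, phosphatases and GTPases, had 21 measured genes. NDRG1-eGFP had 3 called higher and 9 lower against PLP-GFP (median log2 difference -0.51, against 0.08 over all genes, of which 26.1% were higher and 22.2% lower). The lowest adjusted p-values were those of Cdc42bpa (-1.81 ± 0.18 SE, limma-trend adjusted p = 4.34e-05) and Cdc42bpb (-1.46 ± 0.23 SE, adjusted p = 7.66e-04), the MRCK kinases that phosphorylate LIM kinases, and of Prkd3 (-0.95 ± 0.14 SE, adjusted p = 4.79e-04), a protein kinase D. The 3 that were higher were Pak3, Tesk2 and Rhoc. Against PDGFRa-GFP none was called higher and 8 lower (median -0.41, against 0.14 over all genes, of which 10.7% were higher and 10.4% lower), led by Cdc42bpa (-1.37 ± 0.18 SE, adjusted p = 4.91e-04) and Ppp3cb, a catalytic subunit of calcineurin, which activates slingshot (-1.16 ± 0.17 SE, adjusted p = 0.00145). Between PLP-GFP and PDGFRa-GFP, Pak2 was called as deposited (0.43 ± 0.12 SE, adjusted p = 0.0396), while with the length trend removed Pak2 was not (0.15) and Pak3 was called lower (-0.62), against 4.46% of all genes higher and 5.24% lower. Once the length trend was taken out, 2 were called higher and 6 were lower against PLP-GFP, and 1 higher and 6 lower against PDGFRa-GFP. All genes were then at the shares given above. The higher genes against PLP-GFP were now Pak3 and Rock1 (0.57), while Tesk2 (0.19) and Rhoc (0.06) lost their calls. Rhob (-0.84) joined the lower genes there, and Rock2, Pak2, Tesk1 and Rac1 left them. Ywhaz was among the lower genes against both groups, as deposited and with the trend removed, but 15.2% of its windows are shared, so its values are uncertain.

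Proteins that help cofilin, and others of the ADF homology fold, split differently. Of 15 listed 12 were measured, and Coro1a, Coro1b, Twf2 and Dbnl were higher, and Coro1c and Gmfb lower, in NDRG1-eGFP against PLP-GFP, close to the 48.3% of all genes called. Removing the length trend gave 5 higher and 3 lower there, where 20.0% of all genes were higher and 16.4% lower. Dbnl (0.31) and Coro1c lost their calls, and Wdr1 (0.38), Coro7 (0.50), Twf1 (-0.38, with 11.1% of windows shared) and Cap1 (-0.43) gained one. Coro1b, a coronin that binds filaments and recruits slingshot, had means of 13.46 in PDGFRa-GFP, 12.87 in PLP-GFP and 13.85 in NDRG1-eGFP. It fell in PLP-GFP (-0.59 ± 0.12 SE, limma-trend adjusted p = 0.0129) and was higher in NDRG1-eGFP than in PLP-GFP (0.98 ± 0.12 SE, adjusted p = 1.68e-04). Twf2, a twinfilin, was 0.92 ± 0.16 SE higher in NDRG1-eGFP than in PLP-GFP (adjusted p = 0.00112). Against PDGFRa-GFP the 4 genes Coro1a, Coro1b, Twf2 and Dbnl were called higher and none lower, where 10.7% of all genes were higher and 10.4% lower. None of the list was called there once the length trend was removed, against 9.01% of all genes higher and 9.02% lower. Coro1a is also a gene of microglia and other immune cells, whose markers moved as given above.

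Among actin monomers and the proteins that bind them, with 5 of 6 measured, 2 were higher and 1 lower in NDRG1-eGFP against PLP-GFP. Of all genes, 48.3% were called in this comparison (26.1% higher, 22.2% lower), the background for each list of this paragraph. Pfn1, profilin 1, was higher (0.96 ± 0.23 SE, limma-trend adjusted p = 0.00629). Actb was higher too (0.89 ± 0.24 SE, adjusted p = 0.0113), though not with the length trend removed (0.46), and it fell in PLP-GFP against PDGFRa-GFP (-1.19 ± 0.24 SE, adjusted p = 0.0129), but 9.12% of its transcript windows occur at another locus. Actg1 was lower by 3.42 in NDRG1-eGFP against PLP-GFP on the log2 scale, with 36.3% of its windows shared, so its values are uncertain. Tmsb10, a thymosin that binds monomers, with 27.0% of windows shared, was lower in PLP-GFP (-1.19 ± 0.35 SE, adjusted p = 0.0412) and in NDRG1-eGFP (-1.54 ± 0.35 SE, adjusted p = 0.0122), each against PDGFRa-GFP, and in neither with the length trend removed. In the capping and stabilising list, with 10 of 11 measured, Capzb, a barbed-end capping subunit (1.09 ± 0.13 SE, adjusted p = 1.39e-04), Tpm1, a tropomyosin (1.05 ± 0.12 SE, adjusted p = 1.21e-04), and Tmod1 were higher in NDRG1-eGFP than in PLP-GFP. Capza1 and Tpm3 were lower, and both are uncertain, with 61.4% and 23.2% of windows shared. All 6 genes of the MICAL list, which includes enzymes that oxidise actin or reverse that oxidation, were measured. The reductase Msrb2 was higher (1.42 ± 0.20 SE, adjusted p = 4.27e-04) and its relative Msrb1 lower (-1.22 ± 0.27 SE, adjusted p = 0.00444) in NDRG1-eGFP against PLP-GFP, and the other 4 were not called.

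**Figure D5:**
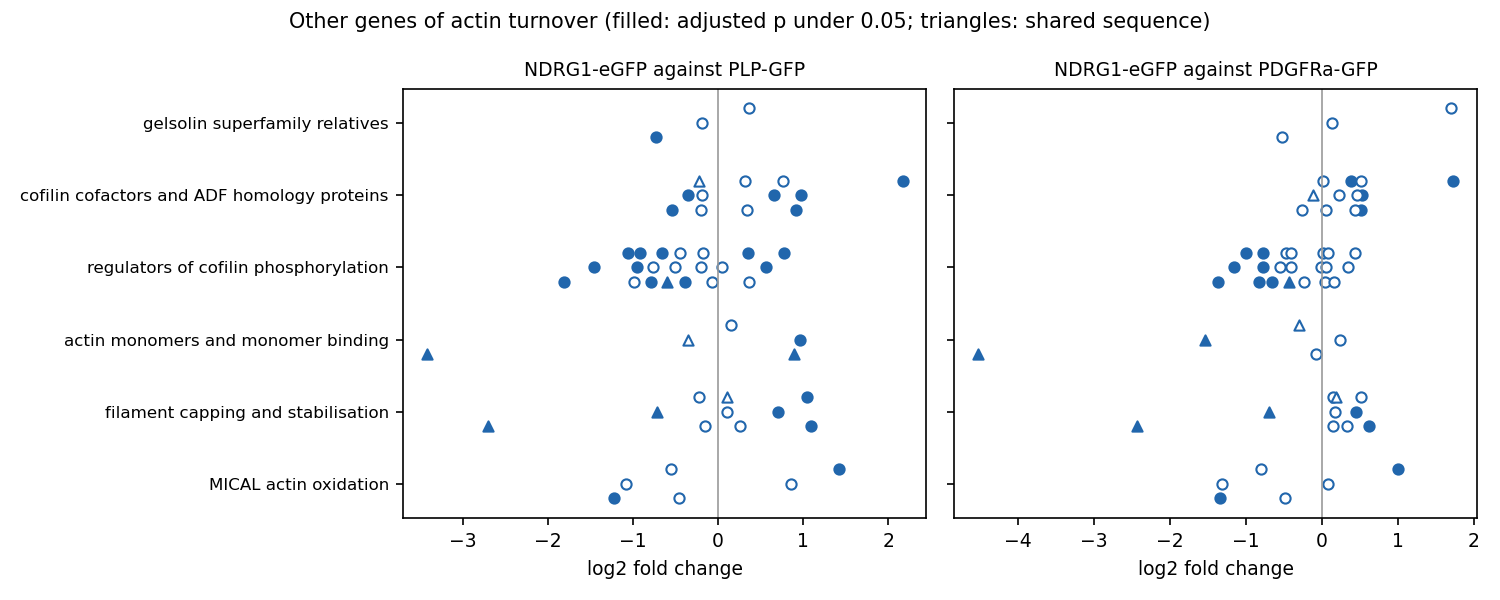
Log2 fold change (horizontal) of each measured gene in 6 lists of actin turnover genes, for NDRG1-eGFP against PLP-GFP and against PDGFRa-GFP; filled symbols have an adjusted p under 0.05 and triangles mark genes with over 5% of transcript windows shared with another locus. Among regulators of cofilin phosphorylation, 9 filled symbols lie below 0 and 3 above in the first panel, and 8 below and none above in the second.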

How the data were processed

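The deposited files gave 1 library each, with a symbol and a normalized value per gene, per the file headers. The authors had put the values on a log2 scale before deposit, with a median of 10.57 in every library. The highest value was 21.87 in every library, and the lowest ran from 0.29 to 0.32. Shares of summed linear values are therefore shares of these normalized values and not of the RNA of a library. Total RNA was isolated on columns with DNase treatment and sequenced on a HiSeq 2500, per the labels' protocols and the design text. BWA, DESeq2 1.2.5 and the build mm10 are named in the submitters' processing notes, without their roles. Strandedness is not given in the sources used here, and depth is unknown.

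From these values, limma-trend (limma 3.58.1, R 4.3.3) was fitted to all 9 libraries with a mean per group, two-sided, with Benjamini-Hochberg adjustment over 11315 genes. Requiring 1 or more in 3 or more libraries removed no gene. Recentring each library by its median difference turned the NDRG1-eGFP against PDGFRa-GFP calls from 1207 higher and 1176 lower into 591 and 1362. Transcript lengths (11271 genes) and shared 50-base windows were taken from GENCODE M21 (GRCm38, which mm10 denotes). The length trend was a loess fit per library (span 0.4). A gene was called shared at over 5% of windows. No measured gene overlaps the 8 genes, but unmeasured ones do (such as the antisense Gm10369 at Limk1). The fit was tested on simulated data. The members, the gene lists and the tests were chosen with earlier results of these data known. Named genes were the members, up to 3 genes per pathway list and comparison with the smallest adjusted p, the 3 genes most correlated with Gsn and with Ssh3, and the reporter genes, of which 1 is not reported here; other list genes were named to complete a count, after their values were seen. Alternatives covered scaling, filters, added constants, a replicate block, fits of 2 groups, length, shared genes, robust empirical Bayes, threshold and leaving out each library.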

Additional observations from a re-analysis of the deposited data

How the results depend on the processing

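For NDRG1-eGFP against PLP-GFP, Gsn, Ssh3 and Limk1 kept direction and call in every alternative run (Gsn 0.85 to 1.28, Ssh3 -3.55 to -2.83, Limk1 -0.94 to -0.76). Ssh3 has no value under the filter on a mean of at least 8. Against PDGFRa-GFP, Gsn lost its call with length and replicate block together (adjusted p = 0.0566) and at an adjusted p under 0.01, and Limk1 lost its call in 5 of 18 alternatives. Unknown depth limits what can be said of low genes such as Ssh3.

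NDRG1-eGFP against PLP-GFP had 5460 genes called, PLP-GFP against PDGFRa-GFP had 1922 and NDRG1-eGFP against PDGFRa-GFP had 2383. At an adjusted p under 0.01 these counts were 3526, 292 and 899. Fits of only the 2 groups compared called 1066 genes in the second comparison and 1042 in the third. With the length trend removed, PLP-GFP against PDGFRa-GFP had 1094. Leaving out 1 library gave 3961 to 4946, 278 to 2789 and 1316 to 4621. The lowest of these counts came without PLP-GFP replicate 2 (3961 and 278) and without NDRG1-eGFP replicate 2 (1316), and 4621 came without PDGFRa-GFP replicate 3. For PLP-GFP against PDGFRa-GFP, 759 came without PDGFRa-GFP replicate 2 and 369 without PLP-GFP replicate 3. For NDRG1-eGFP against PDGFRa-GFP, 1547 came without PDGFRa-GFP replicate 1 and 1372 without NDRG1-eGFP replicate 1.

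Of the 8 members, 7, 1 and 3 were called. At an adjusted p under 0.01 the counts were 4, 0 and 1. With the length trend removed they were 3 and 0 in the first 2 comparisons, and in fits of only the 2 groups PLP-GFP against PDGFRa-GFP had 0. Leaving out 1 library gave 4 to 7, 0 to 1 and 2 to 4, with 4 in the first comparison without PLP-GFP replicate 2 and 0 in the second without PDGFRa-GFP replicate 2 or any PLP-GFP replicate.

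Deviations from the group means correlated at -0.234 to 0.094 between same-numbered libraries of different groups and at -0.134 to 0.225 between differently numbered ones. These values cannot show whether same-numbered libraries were prepared together. With a replicate block, 4680, 722 and 1321 genes and 6, 0 and 2 members were called, losing Dstn (adjusted p = 0.0735), Ssh1 (0.0613) and Limk1 (0.0662), in that order of comparisons. With the replicate block and length trend together, 3326, 388 and 1282 genes and 3, 0 and 2 members were called.

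Directions turned in these cases, none of them called. With the length trend removed, with or without the block, Dstn was -0.04 and Ssh2 0.04 in NDRG1-eGFP against PLP-GFP, Ssh2 was -0.02 in PLP-GFP against PDGFRa-GFP, and Dstn was -0.09 and Ssh2 0.02 in NDRG1-eGFP against PDGFRa-GFP. After recentring, Dstn and Ssh1 were each -0.01 in NDRG1-eGFP against PDGFRa-GFP. In PLP-GFP against PDGFRa-GFP, Ssh3 turned to between 0.03 and 0.15 without PDGFRa-GFP replicate 1 (0.04), PDGFRa-GFP replicate 2 (0.15) or PLP-GFP replicate 2 (0.03), and Limk2 to 0.05 and 0.12 without PDGFRa-GFP replicates 1 and 2 and to 0.00 without PLP-GFP replicate 1 or 3, over ranges of -0.47 to 0.15 and -0.19 to 0.12 when each library was left out. In NDRG1-eGFP against PDGFRa-GFP, Ssh1 was -0.11 without PDGFRa-GFP replicate 2 and -0.02 without NDRG1-eGFP replicate 3, and Limk2 was -0.02 without PDGFRa-GFP replicate 3, over ranges of -0.11 to 0.25 and -0.02 to 0.30. Beyond the change in what is fitted, the cause was not tested.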
